A study of Bos taurus with 18 samples.

Results

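ELF5, the prolactin receptor PRLR and the transcription factors STAT5A and STAT5B were examined in milk somatic cells, the leukocytes and shed epithelial cells that can be collected from milk. The genes were selected by exact match of their symbols in the probe annotation of the Affymetrix bovine genome array, which gave 1 probe set each for ELF5, PRLR and STAT5B. These are 3 of 4 listed genes, 3 of 9155 named genes and 3 of 24016 probe sets tested, many of which carry no gene symbol. STAT5A was not analysed here. RNA of 18 cows was measured with 1 array per cow, in 3 groups of 6: mastitis, an inflammation of the udder; endometritis, inflammation of the uterine lining; and healthy. Cows with mastitis or endometritis were sampled 10 to 220 days after calving, in lactations 1 to 8, and no age is given for them. Healthy cows were free of clinical signs, with a milk cell count below 100000 per ml and an age of 2 to 4 years, and most were sampled at 10 to 100 days. The healthy cows' label also names an 8th lactation, which cannot be reached at that age. Cows came from farms and clinics without any stated treatment or genotype, so stage of lactation and age can differ between the groups and cannot be told apart from disease.

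Prolactin is the pituitary hormone that maintains milk synthesis. Its receptor sits on the alveolar cells of the udder and signals through the kinase JAK2, which phosphorylates STAT5A and STAT5B; these then enter the nucleus and switch on genes of milk proteins together with the glucocorticoid receptor. ELF5 belongs to the ETS family of transcription factors. In mice it is required for alveolar cells to form, and it acts on the same milk protein genes as STAT5. An array measures the messenger RNA of these proteins, not their phosphorylation, so STAT5 activity was not measured.

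All values are log2 normalised intensities as deposited. The table runs from 2.43, the lowest value and one shared by many dim probe sets, to 14.2, with a median of 2.55, and a gene at or under that median on all 6 arrays of a group is called at background there. The number of arrays limits the precision of every value, and errors of differences are standard errors (SE) from a limma model of all 18 arrays. A probe set was called at a Benjamini-Hochberg adjusted p under 0.05 over all probe sets tested. By that rule 19.5% of probe sets were called in mastitis against healthy (10.2% higher and 9.35% lower), 14.5% in mastitis against endometritis (7.99% higher and 6.55% lower) and 0% in endometritis against healthy. In that last comparison limma called 0 probe sets in either direction, and 6 other settings called 1 probe set. There 1047 of 24016 had an unadjusted p under 0.05 in limma, a smaller share than the 0.05 that chance gives on average. The comparisons share arrays, so the members' values are set side by side and not counted as separate evidence.

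ELF5 was low on every mastitis array and high on nearly every other. It read 5.60, 3.45, 2.78, 3.38, 2.86 and 2.71 on the 6 mastitis arrays. The endometritis arrays read 12.08, 11.29, 11.99, 9.85, 6.13 and 10.93, and the healthy arrays 11.11, 12.09, 11.78, 12.38, 12.48 and 8.93. The highest mastitis cow lay below the lowest endometritis cow and below every healthy cow, while endometritis and healthy overlapped. Means were 3.46 ± 1.09 in mastitis, 10.38 ± 2.24 in endometritis and 11.46 ± 1.33 in healthy milk cells (SD, n = 6 each).

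In mastitis against healthy, ELF5 fell by 8.00 ± 0.92, a 256-fold difference (adjusted p = 4.95e-05 in limma), and ranked 1 of 9155 genes from the lowest difference. It ranked 1 also in mastitis against endometritis, where it fell by 6.92 ± 0.92, or 121-fold (adjusted p = 0.000195). In endometritis against healthy the difference was -1.08 ± 0.92, rank 41 of 9155 from the lowest, and did not pass (adjusted p = 0.925 in limma). Its 95% interval of -3.05 to 0.88 leaves room for a large fall or a smaller rise. Without endometritis cow 5 the difference was -0.23. ELF5 is the 1 of 3 measured members called in mastitis against healthy, against 19.5% of all probe sets. In a bulk sample such as this, fewer epithelial cells and less ELF5 RNA per cell cannot be told apart.

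**Figure D1:**
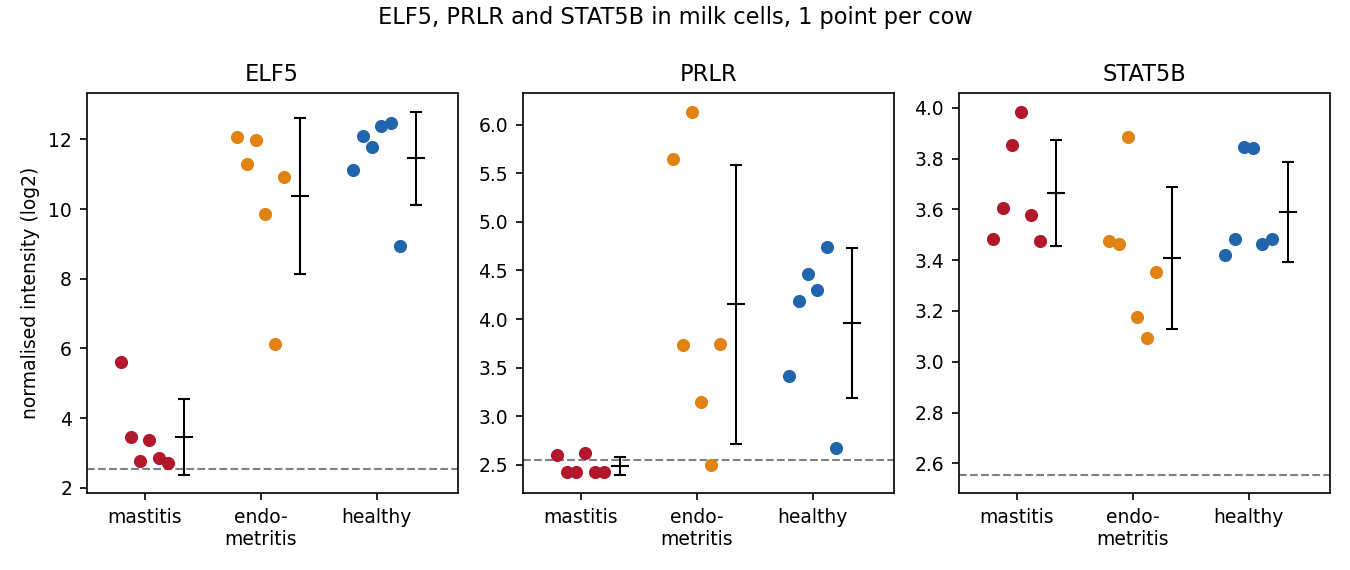
Log2 normalised intensity (vertical axis, a separate scale per gene) of ELF5, PRLR and STAT5B on the arrays of 6 cows with mastitis (red), 6 with endometritis (orange) and 6 healthy cows (blue). Points are cows, black bars mean ± SD, and the dashed line is the median of the whole table, 2.55. ELF5 runs from 2.71 to 5.60 in mastitis and from 8.93 to 12.48 in healthy cows, and STAT5B stays between 3.09 and 3.98 on all arrays.

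PRLR was near the lowest value of the table in mastitis. Mastitis arrays read 2.60, 2.43, 2.43, 2.62, 2.43 and 2.43, of which 4 are the lowest value of the table itself. Endometritis arrays read 5.65, 3.73, 6.13, 3.14, 2.50 and 3.74, and healthy arrays 3.41, 4.19, 4.46, 4.30, 4.74 and 2.67. All 6 mastitis cows lay below all 6 healthy cows, narrowly at the edges, but the endometritis cow at 2.50 lay within the mastitis range. Endometritis also held the 2 highest PRLR values of the series, 5.65 and 6.13. Means were 2.49 ± 0.09 in mastitis, 4.15 ± 1.43 in endometritis and 3.96 ± 0.77 in healthy milk cells (SD, n = 6 each).

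The PRLR difference of -1.47 ± 0.53 in mastitis against healthy did not pass (adjusted p = 0.0662 in limma). The groups did not overlap, and an exact two-sided permutation test of the gene by itself gave p = 0.00216, the smallest that 6 against 6 can give. That p is not adjusted, and 7079 of 24016 probe sets had an unadjusted p under 0.05 in limma in this comparison. The share of all probe sets that separate as fully was not counted. A fit with RNA integrity as a covariate, read as the GAPDH control signal at 3′ minus that at 5′, gave -0.66 (adjusted p = 0.661). In mastitis against endometritis PRLR was called 1.66 ± 0.53 lower in mastitis (adjusted p = 0.0479), but that call was lost in 15 of 18 fits that left out 1 array, with adjusted p up to 0.114. In endometritis against healthy the difference was 0.19 ± 0.53 (adjusted p = 1, 95% interval -0.95 to 1.32), and its sign turned when endometritis array 1 or 3, or healthy array 6, was left out. The healthy mean lies 1.53 above the lowest value of the table, so a larger fall could not have been seen. The probe set is of a kind whose probes match several transcripts of a gene, so the long and short forms of the receptor were not told apart.

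STAT5B was measured on all 18 arrays above the table median, at nearly the same level in the 3 groups. Mastitis arrays read 3.49, 3.60, 3.85, 3.98, 3.58 and 3.48, endometritis arrays 3.47, 3.46, 3.89, 3.17, 3.09 and 3.35, and healthy arrays 3.42, 3.49, 3.85, 3.84, 3.46 and 3.49. The groups overlapped, and the 2 lowest values belonged to endometritis. Means were 3.66 ± 0.21, 3.41 ± 0.28 and 3.59 ± 0.20 in mastitis, endometritis and healthy milk cells (SD, n = 6 each).

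No STAT5B difference passed. It was 0.07 ± 0.13 in mastitis against healthy (adjusted p = 0.774 in limma, 95% interval -0.21 to 0.35). In mastitis against endometritis it was 0.26 ± 0.13 (adjusted p = 0.241, interval -0.02 to 0.53), and in endometritis against healthy -0.18 ± 0.13 (adjusted p = 0.925, interval -0.46 to 0.10). The signal was dim: STAT5B had 15 distinct values on 18 arrays, the same value recurring on separate arrays, as did 52.4% of the 1724 probe sets whose mean lay within 0.25 of its own. PRLR also had 15 distinct values and ELF5 18. These intervals bound the reading of the probe set, not the transcript.

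The label of the samples was checked against cell type markers. Of 12 epithelial markers, 0 were higher and 9 lower in mastitis than in healthy milk cells, and 6 were lower in mastitis than in endometritis. Among all probe sets 9.35% were lower and 10.2% higher against healthy, and 6.55% were lower against endometritis. Of the 9 calls, that of CDH1 held in 6 and that of CLDN3 in 14 of 18 fits that left out an array. KRT19, a keratin of luminal cells, fell by 5.67 ± 0.69, and EPCAM, an epithelial adhesion protein, by 3.87 ± 0.55. The epithelial score, the mean centred value of the 12 markers, ran from -1.43 to -1.15 in mastitis, from -0.86 to 1.66 in endometritis and from -0.14 to 1.64 in healthy milk cells. KRT8, CLDN3, ESRP1 and KRT15 were at background in mastitis, and KRT8 in all groups. Of 7 measured neutrophil markers 6 were higher in mastitis than in healthy milk cells, with a score of 1.84 to 3.38 in mastitis, -2.49 to 0.48 in endometritis and -1.81 to 0.33 in healthy. Macrophage, T cell, fibroblast, red cell and myoepithelial lists had 0 members called by limma in any comparison, with 1 at an unadjusted p under 0.05 (CD68, a macrophage marker, in mastitis against healthy). Among 3 measured B cell markers the kinase BLK was called higher in mastitis than in healthy milk cells.

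The members' changes in mastitis were set beside those of the epithelial markers, but the lowest value of the table limits how far each can fall. ELF5 averaged 9.03 above that value in healthy milk cells, KRT19 6.28, EPCAM 4.15, the mean of the 12 markers 2.37, PRLR 1.53 and STAT5B 1.16. In mastitis against healthy the differences were -8.00 for ELF5, -5.67 for KRT19 and -2.12 for the mean of the 12 markers. No marker could have matched the fall of ELF5, and neither PRLR nor STAT5B could have matched the mean fall of the markers. The same held in mastitis against endometritis, where the markers averaged -1.75 and ELF5, PRLR and STAT5B stood 7.95, 1.72 and 0.98 above the lowest value in endometritis. Subtracting the markers' mean centred value (the epithelial score) on each array left differences of -5.88 for ELF5, 0.65 for PRLR and 2.19 for STAT5B in mastitis against healthy, and -5.17, 0.09 and 2.00 in mastitis against endometritis. The scale fixes the direction for STAT5B and PRLR, or nearly so for PRLR in mastitis against endometritis. It does not fix that of ELF5, which had room to fall by less than the markers. But the markers' mean could fall by at most 2.37 against healthy, so an equal loss can read as a larger fall in ELF5. These differences therefore say nothing of RNA per epithelial cell, and no test of them is given. With secretory in place of epithelial markers ELF5 was -2.98 and -2.24, and with the 6 brightest epithelial markers, a choice made after the values were seen, -4.69 and -4.03. PRLR in mastitis against healthy was 0.48 with the median of the markers, 1.84 with the 6 brightest and 3.55 with secretory markers.

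All 3 members and most markers were above background in endometritis and healthy milk cells. Between these groups (endometritis minus healthy) the same measure was -0.71 for ELF5, 0.56 for PRLR and 0.19 for STAT5B. None passed an exact two-sided permutation test (p = 0.4, 0.0844 and 0.619, adjusted 0.515, 0.127 and 0.696 over 9 tests). The 9 include the 6 mastitis tests that are not reported, and these make the adjusted values of ELF5 and PRLR smaller. With the 6 brightest markers, chosen after the values were seen, the PRLR value there was 0.62 (unadjusted exact permutation p = 0.0368). Its adjusted p of 0.0473 rests on the same mastitis tests, so it is not read as a pass.

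The members were also set against the epithelial score within each group of 6 cows, apart from PRLR in mastitis, where 4 of 6 values are tied. In endometritis, ELF5 followed the epithelial score with a Pearson r of 0.84 (exact permutation p = 0.00556, adjusted 0.037 over 10 relations) and a Spearman rho of 0.89 (p = 0.0333, adjusted 0.111), and r was 0.90 without the 2 cows farthest from the median score. PRLR followed it with an r of 0.97 (exact permutation p = 0.00833, adjusted 0.037), a rho of 0.83 (p = 0.0583, adjusted 0.117) and an r of 0.84 without those 2 cows. For STAT5B r was 0.86 (exact permutation p = 0.0208, adjusted 0.0521), rho 0.94 (p = 0.0167, adjusted 0.111) and r 0.85 without them. In healthy cows r with the score was 0.77 for ELF5, 0.81 for PRLR and 0.67 for STAT5B, none passing after adjustment (exact permutation p = 0.114, 0.0444 and 0.161, adjusted 0.163, 0.0741 and 0.201). Their rho values were 0.49, 0.77 and 0.52 (p = 0.356, 0.103 and 0.3, adjusted 0.444, 0.171 and 0.429), and without the 2 farthest cows r was 0.56, 0.46 and 0.80. In mastitis r was 0.43 for ELF5 and 0.45 for STAT5B (exact permutation p = 0.446 and 0.353, adjusted 0.446 and 0.392), rho was 0.26 and 0.43 (p = 0.658 and 0.419, adjusted 0.658 and 0.466), and r was 0.88 and 0.22 without the 2 farthest cows.

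ELF5 and PRLR were related to each other in healthy cows with an r of 0.94 (exact permutation p = 0.0111, adjusted 0.037) and a rho of 0.83 (p = 0.0583, adjusted 0.117). That relation rested on healthy cows 6 and 1, the lowest for both genes, without which r was 0.34. In endometritis r was 0.79 (exact permutation p = 0.0333, adjusted 0.0667) and rho 0.89 (p = 0.0333, adjusted 0.111). Without endometritis cows 3 and 1, the 2 farthest from the group's median PRLR, r was 0.97. Every cow of a relation was measured on its own array, so array-wide differences are shared by both genes.

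**Figure D2:**
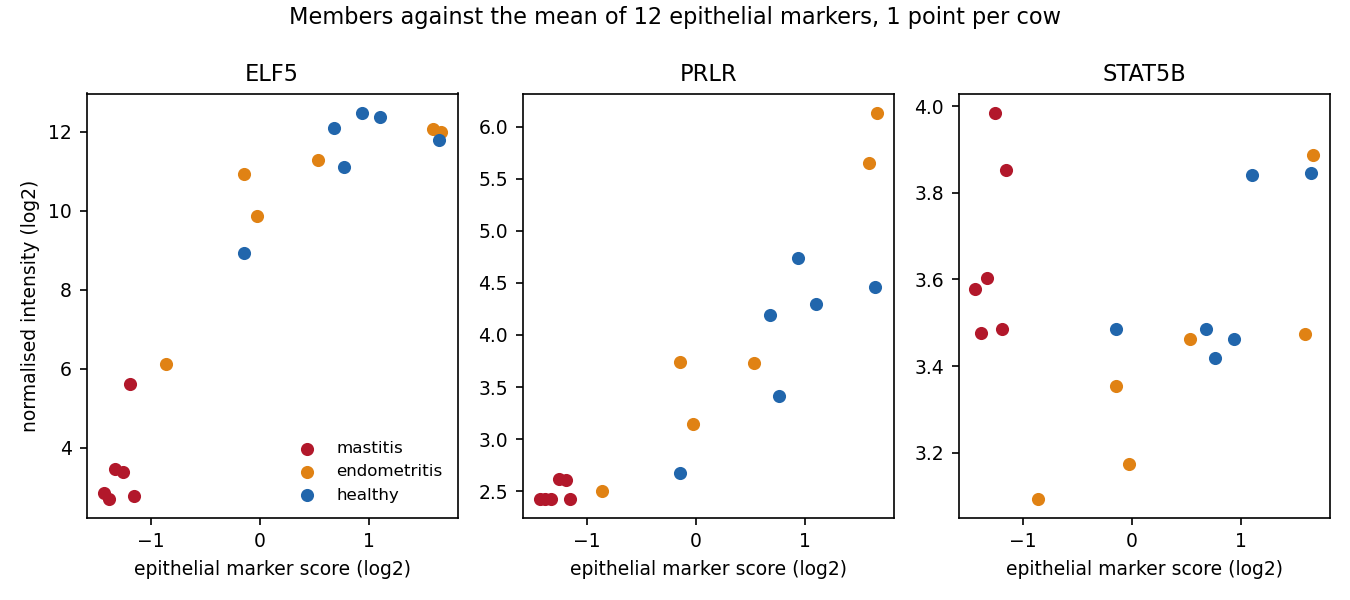
Log2 normalised intensity of ELF5, PRLR and STAT5B (vertical axes) against the epithelial score (horizontal axis, mean centred log2 value of 12 markers), 1 point per cow, coloured by group. Mastitis cows lie at scores from -1.43 to -1.15, where ELF5 and PRLR are low while STAT5B reads 3.48 to 3.98, within or above its range in the other groups.

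The genes most like each member were sought among 6549 genes by the Pearson correlation of deviations from the group means over 18 arrays, given here as a description. The 5 most like ELF5 were BTN1A1, a protein of the milk fat globule membrane (r = 0.98), DNAJC12, a co-chaperone (0.98), GPAM, which starts triglyceride synthesis (0.96), ABCG2, an efflux transporter that moves compounds into milk (0.95), and FABP3, a fatty acid carrier (0.94). BTN1A1 averaged 3.08 ± 0.97 in mastitis, 9.57 ± 2.45 in endometritis and 10.34 ± 1.33 in healthy milk cells, and was -7.27 ± 0.97 in mastitis against healthy. DNAJC12 and GPAM had differences of -7.51 and -6.15. Mastitis cow 1 was the highest mastitis cow, endometritis cow 5 the lowest endometritis cow, and healthy cow 6 the lowest healthy cow for both ELF5 and BTN1A1.

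The 5 most like PRLR were TECTB, a tectorin known from the inner ear (0.97), CLEC3B, or tetranectin (0.97), SHROOM3, an organiser of the apical cytoskeleton (0.96), ESRP1, an epithelial splicing factor (0.96), and PERP, a protein of desmosomes (0.95). Their deviations came mainly from endometritis and healthy cows, where r with PRLR was 0.91 to 0.99; in mastitis r was -0.16 to 0.89 on values close to the lowest of the table. ESRP1 was at least 7.24-fold lower in mastitis than in healthy milk cells, a lower bound against the table median because it was at background on all mastitis arrays. TECTB at -2.30 (adjusted p = 0.0578) and CLEC3B at -0.50 (adjusted p = 0.35) did not pass there.

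For STAT5B the likeness was looser, with GBGT1 (0.89), HYI (0.82), SPADH1 (0.81), SLC30A2 (0.80) and SHPK (0.80). GBGT1 ranged only from 2.56 to 2.94, and STAT5B was highest on mastitis arrays 3 and 4, endometritis array 3 and healthy arrays 3 and 4, at 3.84 to 3.98. Array medians of healthy 3 and endometritis 3 were 2.59 each, while the others lay between 2.53 and 2.56; the part of that offset in the likeness was not tested. By the same measure ELF5 and PRLR had an r of 0.78, PRLR and STAT5B 0.66, and ELF5 and STAT5B 0.43.

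**Figure D3:**
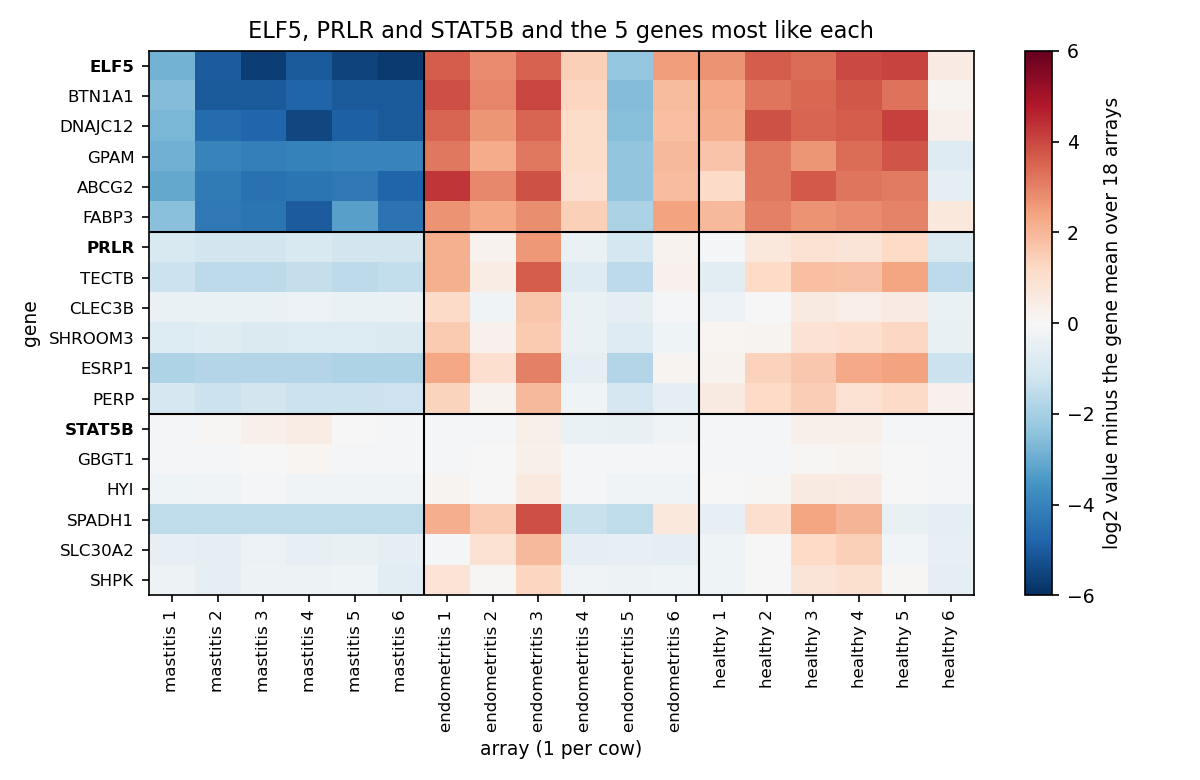
Heat map of log2 values minus each gene's mean over 18 arrays, red above and blue below it, for ELF5, PRLR and STAT5B (bold) and the 5 genes most like each. Columns are cows with mastitis, then endometritis, then healthy, divided by black lines. The ELF5 block is blue in all mastitis cows and in endometritis cow 5, where ELF5 reads 6.13, and it is pale in healthy cow 6, where ELF5 reads 8.93.

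Upstream of STAT5, most genes of prolactin and growth hormone receptor signalling did not pass. Of 24 listed genes 17 were measured, and in mastitis against healthy 3 were higher and 1 lower, a called share of 23.5% beside 19.5% of all probe sets, with a median difference of -0.06 beside 0 for all. GRB2, an adaptor that links receptors to the RAS pathway, averaged 5.27 ± 0.52 in mastitis, 3.65 ± 0.45 in endometritis and 3.66 ± 0.23 in healthy milk cells, and rose by 1.61 ± 0.24 in mastitis against healthy (adjusted p = 0.000287). NMI, a protein that interacts with STAT factors, rose by 2.01 ± 0.41, and PIK3CA, a catalytic subunit of PI3 kinase, by 1.01 ± 0.26. GRB2, NMI and PIK3CA were also called higher in mastitis than in endometritis, at 1.62, 2.13 and 0.89. The call of PIK3CA there was at 1 of its 2 probe sets and held in 12 of 18 fits that left out an array. The other 14 genes did not pass, a called share of 17.6% beside 14.5% of all probe sets.

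JAK1 stood at 9.85 ± 0.39 in mastitis, 10.08 ± 0.59 in endometritis and 9.85 ± 0.47 in healthy milk cells. JAK2, the kinase bound to PRLR, was not analysed here. GHR, the growth hormone receptor, averaged 2.43 in mastitis and 2.49 in both endometritis and healthy milk cells, and each of its 11 probe sets was above the table median on at most 3 of 18 arrays. GH1, growth hormone, was called 0.83 ± 0.27 lower in mastitis than in healthy milk cells (adjusted p = 0.0385), but at 1 of 6 probe sets, and the call held in 11 of 18 fits that left out an array. PRL, prolactin itself, averaged 7.25 ± 0.59 in mastitis, 7.24 ± 0.81 in endometritis and 7.72 ± 0.85 in healthy milk cells at its brightest probe set (difference -0.47 in mastitis against healthy, adjusted p = 0.503). The 6 probe sets annotated as PRL averaged 7.41, 5.18, 2.46, 2.44, 2.43 and 2.43 over all arrays, so they disagree and the level of prolactin RNA is uncertain.

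Brakes on JAK and STAT signalling were mostly higher in mastitis. In mastitis against healthy 7 of 11 measured genes rose, 1 fell and 3 did not pass, with a median difference of 1.28 beside 0 for all probe sets, and 10.2% of all probe sets rose. SOCS3, a suppressor induced by STAT3 and STAT5, read 3.37 at the lowest, 4.99 in the median and 5.57 at the highest in mastitis. It read at most 2.60 in endometritis and 2.61 in healthy milk cells, so neither group overlapped mastitis. It rose by 2.33 ± 0.25 against healthy and by 2.36 ± 0.25 against endometritis (adjusted p = 3.75e-05 and 4.42e-05), at 1 of its 2 probe sets.

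PIAS1, an inhibitor of activated STAT factors, rose by 2.16 ± 0.34 in mastitis against healthy. The phosphatases PTPN6, PTPN1, PTPN2 and PTPRC rose by 2.29, 1.79, 1.28 and 1.81, the last called at 1 of its 3 probe sets. PTPRC is CD45, carried by nearly all leukocytes. SOCS5 was 0.92 ± 0.30 lower (adjusted p = 0.0445), a call kept in 6 of 18 fits that left out an array. In mastitis against endometritis 5 of the 11 were higher and none lower, beside 7.99% of all probe sets higher. Under other settings 3 to 6 were called. CISH and SOCS2, suppressors that STAT5 itself induces, did not pass in mastitis against healthy, at -0.49 (adjusted p = 0.526) and -1.01 (adjusted p = 0.074). CISH averaged 4.76 ± 0.79 in mastitis, 4.78 ± 0.82 in endometritis and 5.26 ± 0.89 in healthy milk cells.

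STAT2, STAT3 and STAT6, of the 4 other STAT genes measured, rose in mastitis while STAT5B did not pass. Beside them, 10.2% of all probe sets rose against healthy and 7.99% against endometritis. STAT3, which drives the return of the udder to its resting state after weaning in mice, averaged 7.59 ± 0.71 in mastitis, 5.61 ± 0.56 in endometritis and 5.35 ± 0.56 in healthy milk cells. It rose by 2.24 ± 0.35 against healthy (adjusted p = 0.000418) and by 1.98 ± 0.35 against endometritis. STAT2, of interferon signalling, rose by 2.50 ± 0.30, and STAT6, of interleukin 4 signalling, by 2.34 ± 0.46 in mastitis against healthy. STAT4 did not pass, at -0.66 ± 0.95 (adjusted p = 0.697).

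Genes of STAT3 signalling and udder involution had 8 of 15 measured members higher and 1 lower in mastitis than in healthy milk cells, and 8 higher and none lower than in endometritis. Of all probe sets 10.2% were higher and 9.35% lower against healthy, and 7.99% higher against endometritis. IL6R, a receptor of interleukin 6, rose by 3.03 ± 0.38, TIMP1, an inhibitor of matrix proteases, by 3.17 ± 0.80, and BCL3, a partner of NF-kappaB, by 1.78 ± 0.30 against healthy. CEBPD, a STAT3 target, rose by 0.98 ± 0.32 (adjusted p = 0.0396), held in 12 of 18 fits that left out an array. IGFBP5, a marker of involution that binds growth factors, was at background in all 3 groups. LTF, lactoferrin, which is known to rise at involution, was 2.05 ± 0.60 lower in mastitis than in healthy milk cells (adjusted p = 0.0235), held in 15 of 18 such fits. Neutrophil markers rose with these lists, over the score ranges given above, and their part in these rises was not tested.

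**Figure D4:**
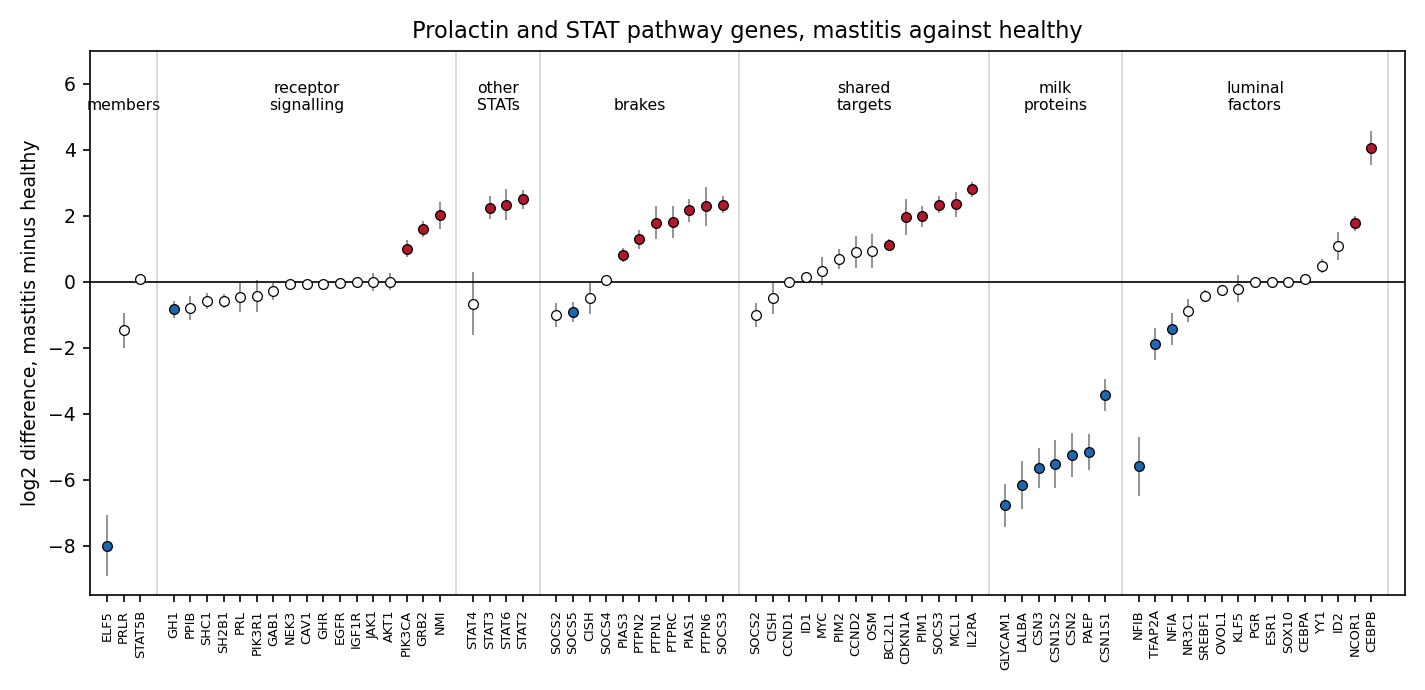
Log2 difference in mastitis minus healthy milk cells (vertical axis) with its SE for ELF5, PRLR and STAT5B and for each measured gene of 6 lists, sorted within a list. Filled red points were called higher, filled blue points lower, and open points did not pass. The milk proteins run from -6.77 to -3.43, all called lower, while STAT2, STAT3 and STAT6 lie between 2.24 and 2.50.

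Downstream, the milk protein genes that STAT5 and ELF5 act on all fell in mastitis, 7 of 7 against healthy and 7 of 7 against endometritis, with median differences of -5.52 and -5.46; 9.35% and 6.55% of all probe sets fell. CSN2, beta-casein, averaged 8.09 ± 1.94 in mastitis, 13.14 ± 0.57 in endometritis and 13.33 ± 0.17 in healthy milk cells. It fell by 5.25 ± 0.66 in mastitis against healthy (adjusted p = 9.76e-05) at 2 of its 3 probe sets. The smallest fall was that of CSN1S1, alpha-s1-casein, at -3.43 ± 0.49, and the largest that of GLYCAM1, a mucin-like milk protein, at -6.77 ± 0.64. CSN1S2, CSN3, LALBA and PAEP had -5.52, -5.64, -6.15 and -5.16. In endometritis against healthy the 7 differences lay between -0.44 and -0.06, and none passed. Readings of PAEP in healthy milk cells, 14.09 to 14.20, are near the top of the scale, which can hide part of a change.

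STAT5 targets that many cell types share were higher in mastitis where they passed. Of 14 measured, 6 rose and none fell in mastitis against healthy, with a median difference of 0.92, and 10.2% of all probe sets rose. Neutrophil markers rose with them, 6 of 7, and their part was not tested. IL2RA, a subunit of the interleukin 2 receptor, averaged 5.80 ± 0.64 in mastitis, 3.07 ± 0.25 in endometritis and 3.01 ± 0.21 in healthy milk cells, and rose by 2.80 ± 0.23 against healthy (adjusted p = 5.77e-06). PIM1, a survival kinase, rose by 1.98 ± 0.32, and MCL1 and BCL2L1, which block cell death, by 2.34 ± 0.39 and 1.13 ± 0.18. CDKN1A, a cell cycle inhibitor, rose by 1.96 ± 0.55. In mastitis against endometritis 5 rose and none fell, beside 7.99% of all probe sets higher. CDKN1A missed there at an adjusted p of 0.0733 in limma. CCND1, a cyclin, was at background in all 3 groups.

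Receptors through which leukocytes signal to STAT5, and their ligands, were measured for 9 of 19 listed genes, of which 3 rose and 1 fell in mastitis against healthy, beside 10.2% and 9.35% of all probe sets. IL2RA, the cytokine IL15 and IL2RG, the chain shared by receptors of several interleukins, were higher in mastitis than in healthy milk cells, at 2.80, 1.91 and 1.80. The same 3 genes were higher than in endometritis, at 2.74, 1.87 and 1.60, beside 7.99% of all probe sets higher there. KIT, a receptor of stem cell factor that marks luminal progenitors in mice and also mast cells, ran the other way. It averaged 2.59 ± 0.08 in mastitis, 7.03 ± 1.99 in endometritis and 6.02 ± 2.16 in healthy milk cells, and was 3.43 ± 0.96 lower in mastitis than in healthy (adjusted p = 0.0191) at 1 of 4 probe sets.

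Genes listed as luminal and lactation transcription factors, not all of them particular to luminal cells, split in direction. Of 15 measured, 2 rose, 3 fell and 10 did not pass in mastitis against healthy, a called share of 33.3% beside 19.5% of all probe sets, with a median difference of -0.01. NFIB, which in mice binds milk protein genes beside STAT5, averaged 3.03 ± 0.34 in mastitis, 7.58 ± 2.25 in endometritis and 8.61 ± 1.51 in healthy milk cells. It fell by 5.58 ± 0.89 in mastitis against healthy (adjusted p = 0.000515, both probe sets) and by 4.56 ± 0.89 against endometritis. TFAP2A was at background in mastitis and at least 3.63-fold lower there than in healthy milk cells. NFIA was 1.44 ± 0.49 lower (adjusted p = 0.0489), a call kept in 3 of 18 fits that left out an array.

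CEBPB, a factor of both mammary cells and myeloid cells, rose by 4.05 ± 0.51 in mastitis against healthy at 1 of 2 probe sets, and NCOR1, a corepressor, by 1.77 ± 0.22 at 2 of 5. NR3C1, the glucocorticoid receptor that works with STAT5, was -0.88 ± 0.35 and did not pass (adjusted p = 0.101). SREBF1, which controls lipid synthesis genes, was 1.18 ± 0.18 lower in mastitis than in endometritis (adjusted p = 0.000551). In endometritis against healthy it was 0.76 ± 0.18, with an unadjusted p of 0.00075 and an adjusted p of 0.833.

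Among ETS relatives of ELF5, 12 of 25 listed genes were measured and 1 was called in mastitis against healthy, a share of 8.33% beside 19.5% of all probe sets. ETS2 averaged 8.13 ± 0.76 in mastitis, 3.85 ± 0.99 in endometritis and 3.77 ± 0.65 in healthy milk cells, and rose by 4.36 ± 0.46 against healthy (adjusted p = 3.1e-05) and by 4.28 ± 0.46 against endometritis. The nearest relatives in epithelium, ELF3 and EHF, showed differences of -0.05 and -0.12 in mastitis against healthy on readings near the lowest of the table on all but 1 healthy array each. ELF1, found in blood cells, was 0.91 ± 0.42 (adjusted p = 0.159). The median difference of the 12 was 0.02.

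Controls of the arrays also differed between the groups. The GAPDH difference between 3′ and 5′ probe sets was 0.39 ± 0.23 in mastitis, 0.58 ± 0.25 in endometritis and 0.88 ± 0.40 in healthy milk cells (SD, n = 6 each). The dap controls, bacterial RNA added to check labelling, read 5.94 ± 0.42 in mastitis (highest 6.58), 6.85 ± 0.80 in endometritis and 7.32 ± 0.86 in healthy milk cells (lowest 6.68), and their part in the results was not tested. With the GAPDH difference as a covariate, ELF5 was -7.31 in mastitis against healthy (adjusted p = 0.00224) and STAT5B was 0.30 (adjusted p = 0.247). In that comparison 1428 of all 24016 probe sets were then called instead of 4689, so calls fell across the whole array and not only in the lists. Of the brakes 2 were called instead of 8, of the STAT3 and involution list 4 instead of 9, and of the luminal factors 3 instead of 5. Of the receptor signalling genes 2 were called instead of 4, and of the leukocyte receptors and ligands 2 instead of 4, while the 7 milk proteins stayed called. Scaling arrays to their hybridisation controls moved the median of all probe sets by 0.26 in mastitis against healthy, and ELF5 was then -7.74, PRLR -1.21 (adjusted p = 0.0472) and STAT5B 0.33. That scaling turned the split of all calls to 1996 higher and 900 lower, beside 2443 and 2246. The sample titles carry a number whose meaning the labels do not give. Up to 120 it held 4 mastitis and 3 healthy cows, and above 120 it held 2 and 3. ELF5 in mastitis minus healthy was -8.33 and -7.14 within these sets, PRLR -1.43 and -1.51, and STAT5B 0.13 and -0.04. Endometritis had 1 cow up to 120, which is too few for a value within that set.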

How the data were processed

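The authors deposited log2 normalised intensities of 18 arrays; per the submitters' processing notes RMA, GCRMA and limma were used, with version, role and order not given. The log2 base was read from the range of the deposited values. Per the labels' protocols, RNA integrity numbers exceeded 6, 100 ng of RNA went into a 3′ labelling kit, and 10 µg of the product onto each array. Of 24128 probe sets 112 controls were left out. The platform annotation gave 1 symbol for 13292 of the rest, several for 86 and none for 10638, and no columns (0) belonged to no sample. Symbols were checked against a gene table of assembly ARS-UCD2.0, with 0 updated and 35 identifiers absent from it. STAT5A was not analysed here, so tests planned for it were not run and 9 relative tests remained. Of these the 6 that involve mastitis are not reported as tests, but they stayed among the 9 over which p-values were adjusted. The lowest value of the table fixes or nearly fixes their direction for PRLR and STAT5B, and for ELF5 it limits how far the markers could fall. No coordinates or sequences are given.

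One limma 3.58.1 model (R 4.3.3; lmFit, eBayes, two-sided; 15 residual and 0.561 prior degrees of freedom) covered the 3 groups, with Benjamini-Hochberg adjustment over 24016 probe sets and no filter. Replicates are separate cows, so p-values measure the spread between cows. A gene with several probe sets is represented by the one with the highest mean over all arrays. Permutation tests of group means used all 924 arrangements of 6 against 6, and those of correlations all pairings of 6 cows (Python 3.11.15, scipy 1.17.1). Named genes are the members, the 5 genes most like each, all milk proteins, a short set of pathway genes fixed by name and up to 4 genes per list and comparison with the smallest p. Cell type markers named, and CDKN1A, JAK1, MCL1, NFIA, NR3C1, PTPN1 and TIMP1, lie outside that rule and were chosen after their values were seen. The members and lists were chosen with earlier results of these data known. Alternatives tried were moderation, array weights, a filter on dim probe sets, 12 arrays only, 2 scalings, a title number block, a GAPDH covariate and each array left out, with 2 more (without healthy 3 and endometritis 3; the 6 brightest epithelial markers) chosen after seeing the data.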

Additional observations from a re-analysis of the deposited data

Results flagged for a closer look

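In 12 of 39 groups of 6 cows tested, 1 cow stood far from the other 5 by Dixon's ratio of gap to range (above 0.625), which chance gives in about 1 of 20 groups, and several of these groups share a cow. Mastitis cow 1 read 5.60 for ELF5, with the other mastitis cows at 2.71 to 3.45, and its mammary secretory score was -1.50, with the others at -3.86 to -3.18. Endometritis cow 5 read 6.13 for ELF5, with the other endometritis cows at 9.85 to 12.08. The same cow was lowest of its group for CSN1S2 at 12.46, CSN2 at 12.00, CSN3 at 12.85, LALBA at 11.58, PAEP at 13.34 and GLYCAM1 at 11.16. Healthy cow 6 was low for LALBA at 13.02 and GLYCAM1 at 12.83, and healthy cow 1 had a neutrophil score of 0.33, above the other healthy cows at -1.81 to -1.10.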

How the results depend on the processing

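ELF5 kept its calls in mastitis against healthy (-8.51 to -7.31) and against endometritis (-7.77 to -6.58) in all 28 alternatives each, and did not pass in endometritis against healthy in any (-1.59 to -0.23, the last without endometritis cow 5). STAT5B passed in none of 28 in any comparison. PRLR did not hold still. In mastitis against healthy it passed with array weights (-1.44), dim probe sets left out (-1.47), only the 12 arrays compared (-1.47), hybridisation scaling (-1.21) and the unadjusted permutation test (-1.47), and also without healthy 6 or without endometritis 1, 3 or 5; leaving out 1 array gave -1.73 to -1.32. In mastitis against endometritis it lost its call with array weights (-1.39), 12 arrays (-1.66), median centring (-1.61), the GAPDH covariate (-1.35) and without healthy 3 and endometritis 3 (-1.26, added after seeing the data), and leaving out 1 array gave -1.99 to -1.26. In endometritis against healthy its sign turned with array weights (-0.045) and without those 2 arrays (-0.11), and leaving out 1 array gave -0.21 to 0.52.

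Called probe sets in mastitis against healthy were 2896 with hybridisation scaling and 1428 with the GAPDH covariate, beside 4689, and in mastitis against endometritis 1981 with that scaling, beside 3493. In endometritis against healthy, 1 was called, beside 0, under 5 settings (trended and robust moderation, array weights, dim probe sets left out, both scalings) and without healthy 6, so leaving out 1 array gave 0 to 1. Where mastitis is compared, the lowest value of the table fixes or nearly fixes the direction of PRLR and STAT5B relative to epithelial markers. For ELF5 it limits how far those markers could fall. PRLR relative to epithelial markers became -0.074 (median) or 3.02 (secretory markers) or 1.22 (6 brightest markers) in mastitis against endometritis, 0.48 (median) in mastitis against healthy and 0.62 (6 brightest) in endometritis against healthy. Leaving out 1 array gave -0.018 to 0.24 for PRLR in mastitis against endometritis and -0.011 to 0.40 for STAT5B in endometritis against healthy. The cause of these shifts was not tested. Averaging probe sets gave no other value, since each member has 1. No paired analysis was possible because the groups are separate cows with 1 array each. Low signal limits PRLR and STAT5B.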
